A study of Drosophila melanogaster and Drosophila simulans and Drosophila yakuba with 8 samples.

Results

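The genes described here are the translation initiation factors of Drosophila melanogaster, taken as every gene whose current FlyBase symbol starts with eIF. The reference gene table holds 44 such symbols, of which 39 were matched to gene identifiers among the 15178 listed in the files, and all 39 passed the filter of a mean of at least 1 RPKM (a read count per unit of gene length and of mapped reads) over the libraries. The symbols eIF4E3, eIF4G2, eIF2alpha, eIF2gamma and eIF4H1 were not matched and are not analysed here. The RNA came from testes dissected from adult flies aged 1 to 7 days, and its messenger RNA was sequenced in 6 libraries, 2 per group. The Zeus knockdown carried the genotype nosGal4>>UAS-Zeus-RNAi and the Caf40 knockdown nosGal4>>UAS-Caf40-RNAi, in both of which the germline driver nos-Gal4 expresses an RNA interference construct, and the third group was wildtype. All 6 libraries carry the strain label Oregon-R, and no driver-only testes were analysed here. Caf40 (Rcd-1 in the current annotation) is a subunit of the CCR4-NOT complex, which removes poly(A) tails from messenger RNAs, and Zeus (Rcd-1r) is a retrotransposed copy of it.

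Initiation begins when the cap at the 5′ end of a messenger RNA is bound by eIF4E, which together with the scaffold eIF4G and the helicase eIF4A forms the complex eIF4F. The eIF3 complex bridges this assembly to the small ribosomal subunit, eIF2 brings the initiator tRNA, and eIF2B reloads eIF2 with GTP. Male germ cells store many messenger RNAs before meiosis and translate them afterwards, and flies hold duplicated genes for several initiation factors. In the list used here 9 members are counted as copies (eIF4E4, eIF4E5, eIF4E6, eIF4E7, eIF4EHP, eIF3d2, eIF3f2, eIF3g2 and eIF4H2), and eIF4E1, eIF4G1, eIF4A, eIF3d1, eIF3f1 and eIF3g1 are the general partners in the pair list. Of these eIF4EHP is a cap-binding relative that represses translation, and it is counted as a copy because the list pairs it with eIF4E1. The members lie on all major chromosome arms, with 11 on 3R, 10 on 3L, 9 on 2R, 5 on X and 3 on 2L, and eIF4G1 is on chromosome 4.

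Between 12662615 and 24429722 reads per library were assigned to genes, and every member had at least 50 reads in each library. RPKM values are the authors' and use mapped reads alone. The fitted log2 fold changes also use composition factors (TMM, between 0.882 and 1.19), so they differ from the ratio of 2 RPKM values. Whether the 2 libraries of a group hold different flies is not labelled, and the p-values measure no more than the spread of these samples, possibly a technical one. The targeted genes were lower in their own knockdowns. Rcd-1r, the target of the Zeus construct, measured 4.05 and 4.04 RPKM in Zeus knockdown testes, 135 and 114 RPKM in Caf40 knockdown testes and 22.2 and 26.4 RPKM in wildtype testes, and so was also higher in Caf40 knockdown testes than in wildtype testes (log2 fold change -2.44 and 2.12 for Zeus and Caf40 knockdown). Rcd-1, the target of the Caf40 construct, measured 79.3 and 77.9 RPKM in Zeus knockdown testes, 25.7 and 23.3 RPKM in Caf40 knockdown testes and 98.2 and 95.1 RPKM in wildtype testes. Its log2 fold change was -2.21 in the Caf40 knockdown. In the Zeus knockdown it was -0.15 and did not pass (edgeR quasi-likelihood test, adjusted p = 0.197). In the current annotation 16 of the 39 members share exon sequence with another gene, 13 of them only on the opposite strand, and the labels do not say whether the libraries keep strand, so reads of such neighbours cannot be told apart. The assignment of reads that match several places (not given in the sources used here) could also split reads between similar copies, and similarity in sequence between copies was not measured.

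In wildtype testis several copies were among the most abundant initiation factor transcripts per length. Ordered by mean RPKM, eIF2A, implicated in mammals as an alternative carrier of initiator tRNA, came first with 453 and 444 RPKM, and eIF4E5, a copy of the cap-binding gene, followed with 412 and 431 RPKM, without overlap between these genes. The start codon selection factors eIF1 and eIF1A had 358 and 367 RPKM and 346 and 371 RPKM, which overlapped between these genes. The cap-binding copy eIF4E4 had 346 and 343 RPKM, eIF4A 323 and 342 RPKM, and eIF4H2, whose family stimulates the eIF4A helicase, 312 and 309 RPKM. These 7 genes stood apart from the remaining members, of which eIF4E7 was highest with 142 and 139 RPKM. The general cap-binding gene eIF4E1 measured 132 and 133 RPKM, which did not overlap eIF4E7 but did overlap eIF3d2 at 134 and 127 RPKM. At the low end, the catalytic eIF2B subunit eIF2Bepsilon had 5.66 and 5.85 RPKM and eIF2Bgamma 5.74 and 6.09 RPKM, and these overlapped. The scaffold eIF4G1 was also low, with 15.8 and 16.5 RPKM. The 9 copies together gave 33.3 and 32.9% of the summed RPKM of all 39 members in wildtype testes.

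The copies and the other members moved in different directions in Caf40 knockdown testes. Of 39 members, 22 rose and 9 fell (edgeR quasi-likelihood test, adjusted p under 0.05), which is 56.4% and 23.1%, whereas 41.9% of all 10223 tested genes rose and 38.6% fell, 80.5% in either direction. Among the 9 copies 7 fell, 1 rose (eIF3f2) and 1 did not pass (eIF4EHP), with a median log2 fold change of -1.01. Of the 30 members that are no copy, 21 rose, 2 fell (eIF2A and eIF5B) and 7 did not pass, with a median of 0.48, beside 0.06 for the whole set of genes. Members with rises of 2-fold or more numbered 7, none of them a copy, and members with such falls numbered 5, all of them copies (17.9% and 12.8% of the members, against 20.6% and 17.4% of all genes). The RPKM values of 38 of 39 members did not overlap between these groups, as for 90.1% of all genes, so a lack of overlap is common here. The copies' share of the summed RPKM of all members was 35.7 and 35.8% in Zeus knockdown testes, 15.5 and 18.4% in Caf40 knockdown testes and 33.3 and 32.9% in wildtype testes, a share that does not depend on how libraries are scaled. Scaling moved the split: 28 members rose and 8 fell with scaling by library total, and 14 rose and 13 fell with scaling to the same median RPKM. The shares of all genes under these 2 settings are not set beside these counts, so they show only the dependence on scaling. These settings moved the median log2 fold change of all genes by 0.22 and -0.30. The members' median lay 0.22 above that of all genes under both. A change of scaling moves every gene nearly alike, so this gap is fixed by construction. The calls of eIF2D, eIF2beta, eIF3a, eIF3f2, eIF3h, eIF3k, eIF3l, eIF3m and eIF5B were lost under at least 1 of 17 alternative settings, and the other 22 were not.

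**Figure D1:**
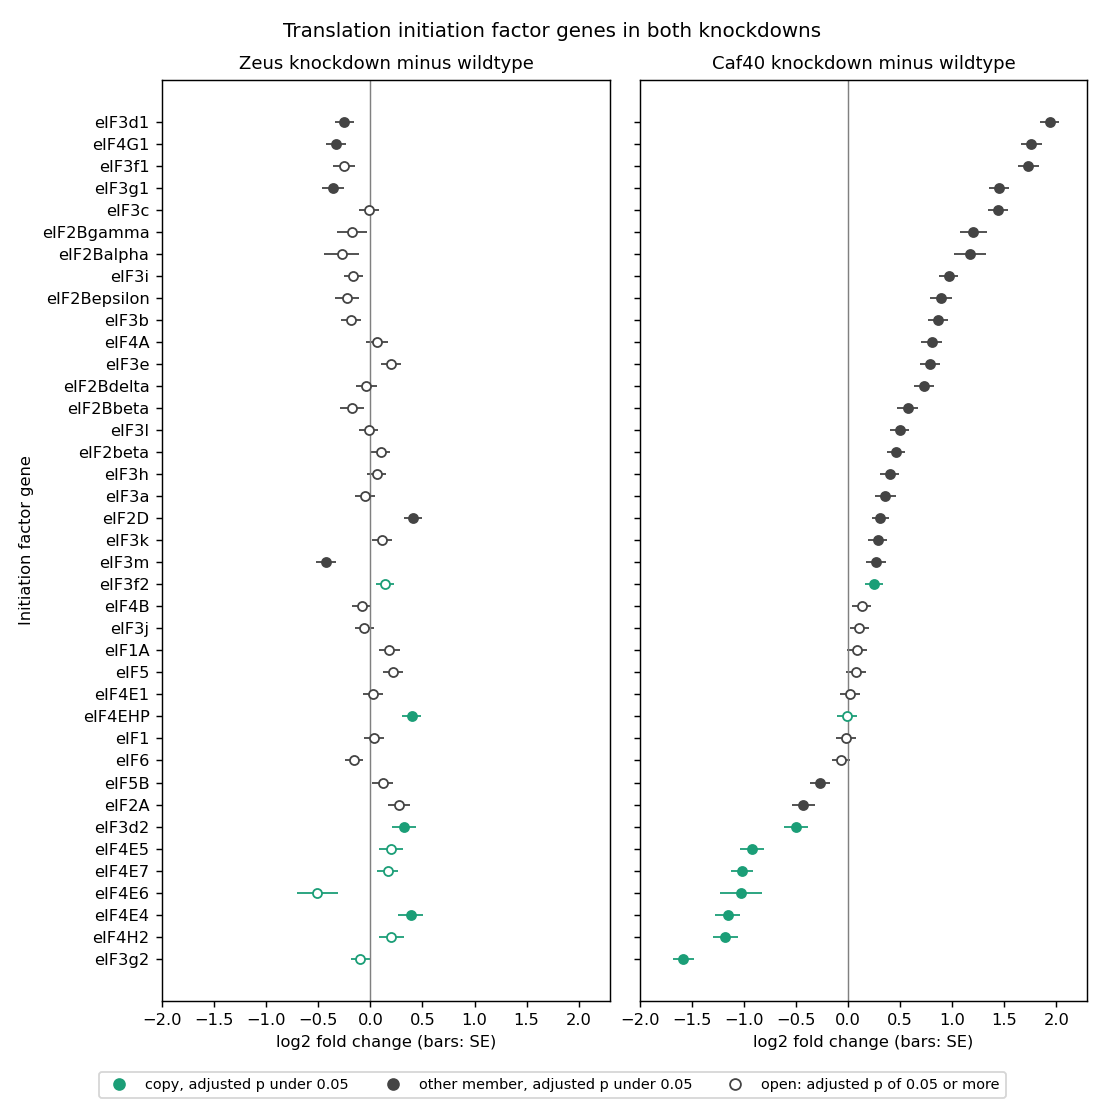
Log2 fold change of each of the 39 initiation factor genes in the Zeus knockdown (left) and the Caf40 knockdown (right) relative to wildtype, with bars for the standard error of the fit (2 libraries per group), copies in green and filled points for adjusted p under 0.05. Genes are ordered by the Caf40 value, and the 7 lowest values in the right panel are all copies, with eIF3g2 at -1.58 and eIF3d1 at 1.94 at the ends.

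Markers of germ cell stages moved with the same groups. In bulk testis RNA, fewer cells of a type and less RNA per cell cannot be told apart. The summed RPKM of the 6 measured stem cell and spermatogonia markers (of 8 listed) was 42.2 and 42.1 in Zeus knockdown testes, 244 and 198 in Caf40 knockdown testes and 72.8 and 72.8 in wildtype testes. Of these 6 markers all fell in Zeus knockdown testes, and 5 rose and 1 fell in Caf40 knockdown testes. The sum of 13 spermatocyte markers was 665 and 658 in Zeus knockdown testes, 415 and 424 in Caf40 knockdown testes and 844 and 814 in wildtype testes, with 12 falls and 1 rise in Caf40 knockdown testes. The sum of the 17 measured spermatid markers (of 19 listed) was 21207 and 21418 in Zeus knockdown testes, 16133 and 18164 in Caf40 knockdown testes and 17197 and 17619 in wildtype testes. Of these 17 markers 11 fell and none rose in Caf40 knockdown testes, and 10 rose and none fell in Zeus knockdown testes. Of all tested genes 41.9% rose and 38.6% fell in Caf40 knockdown testes, and 16.8% rose and 20.0% fell in Zeus knockdown testes. The Caf40 knockdown libraries thus had the highest spermatogonial sum and the highest RPKM of eIF3d1 and eIF4G1, and the lowest spermatocyte sum and the lowest share of copies. Replicate 1 of the Caf40 knockdown, with the lower copy ratios, also had the higher spermatogonial sum. The part of these markers in the changes of the initiation factors was not tested. Sums of markers of other tissues were small but also differed between groups. Accessory gland and duct markers summed to 18.9 and 14.5 RPKM in Zeus knockdown testes, 3.69 and 5.45 RPKM in Caf40 knockdown testes and 10.5 and 9.38 RPKM in wildtype testes. Gut and Malpighian tubule markers summed to 13.5 and 12.3 RPKM in Zeus knockdown testes, 23.98 and 20.8 RPKM in Caf40 knockdown testes and 8.49 and 5.002 RPKM in wildtype testes. Fat body markers summed to 11.01 and 12.3 RPKM in Zeus knockdown testes, 16.3 and 14.7 RPKM in Caf40 knockdown testes and 12.8 and 11.3 RPKM in wildtype testes. Only 4, 2 and 3 genes of these lists passed the filter, and both such gut and tubule genes rose in both knockdowns. The part of these sums in the results was not tested either. Within these lists the yolk protein genes Yp1 and Yp2 and the trypsin gene betaTry were below 0.5 RPKM in every library, but other genes were not. The 2 gut and tubule genes past the filter had log2 fold changes of 1.13 and 1.75 in the Zeus knockdown. In the Caf40 knockdown theirs were 1.73 and 1.86. Muscle sheath markers summed to 307 and 326 RPKM in Zeus knockdown testes, 322 and 312 RPKM in Caf40 knockdown testes and 263 and 262 RPKM in wildtype testes, and hub and cyst cell markers to between 55.1 and 66.2 RPKM in every library. These sums hide opposite changes. Of 10 measured hub and cyst cell markers 4 rose and 4 fell in Caf40 knockdown testes, and 2 rose and 1 fell in Zeus knockdown testes. Of 9 measured muscle sheath markers 5 rose and 1 fell in each knockdown.

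Of the cap-binding genes, all 4 measured eIF4E copies fell in Caf40 knockdown testes while the general gene did not pass the test. The listed copy eIF4E3 was not matched and is not covered here. eIF4E4 measured 403 and 410.2 RPKM in Zeus knockdown testes, 160.5 and 201 RPKM in Caf40 knockdown testes and 346 and 343 RPKM in wildtype testes, and the Caf40 libraries were far below the others (log2 fold change -1.15, SE 0.12, adjusted p = 6.05e-07, Caf40 knockdown minus wildtype). eIF4E5 measured 433 and 441 RPKM in Zeus knockdown testes, 236 and 284 RPKM in Caf40 knockdown testes and 412 and 431 RPKM in wildtype testes (log2 fold change -0.92, SE 0.12, adjusted p = 3.94e-06). eIF4E7 measured 141 and 143 RPKM in Zeus knockdown testes, 76.7 and 86.1 RPKM in Caf40 knockdown testes and 142 and 139 RPKM in wildtype testes (log2 fold change -1.01, SE 0.10, adjusted p = 4.24e-07). None of these 3 copies overlapped between the Caf40 knockdown and wildtype, as for 90.1% of all tested genes. eIF4E6 was the rarest copy, with 6.97 and 5.70 RPKM in Zeus knockdown testes, 5.60 and 5.69 RPKM in Caf40 knockdown testes and 8.89 and 10.9 RPKM in wildtype testes, and fell by 1.03 on the log2 scale in Caf40 knockdown testes (SE 0.20, adjusted p = 0.000255), with the largest standard error of these copies. eIF4E1 measured 120.5 and 122 RPKM in Zeus knockdown testes, 164 and 151 RPKM in Caf40 knockdown testes and 132 and 133 RPKM in wildtype testes. Its RPKM was higher in the Caf40 knockdown libraries than in the others, but after TMM scaling its log2 fold change was 0.02 (adjusted p = 0.851), and it turned to -0.28 with scaling to the same median RPKM. eIF4EHP, a cap-binding relative that represses translation instead of starting it, measured 28.7 and 27.00 RPKM in Zeus knockdown testes, 26.9 and 27.5 RPKM in Caf40 knockdown testes and 23.7 and 23.1 RPKM in wildtype testes and did not pass (log2 fold change -0.01, adjusted p = 0.918, Caf40 knockdown minus wildtype). It shares exon sequence with Syx1A on the same strand, so its level is uncertain.

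The summed RPKM of the 5 measured eIF4E genes without eIF4EHP was 1105 and 1123 in Zeus knockdown testes, 643 and 727 in Caf40 knockdown testes and 1041 and 1057 in wildtype testes. The sum and its shares leave out eIF4E3, which was not matched. Within this sum eIF4E1 made up 10.9 and 10.9% in Zeus knockdown testes, 25.5 and 20.8% in Caf40 knockdown testes and 12.7 and 12.6% in wildtype testes. eIF4E4 made up 36.5 and 36.5% in Zeus knockdown testes, 24.95 and 27.6% in Caf40 knockdown testes and 33.2 and 32.4% in wildtype testes. The share of eIF4E1 was therefore highest in the Caf40 knockdown libraries and that of eIF4E4 lowest there. Among these 5 genes eIF4E5 kept the largest share in every library, between 36.8% and 40.8%.

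Around the cap-binding genes, the scaffold and the helicase rose in Caf40 knockdown testes and the helicase cofactor copy fell. eIF4G1 measured 11.8 and 11.4 RPKM in Zeus knockdown testes, 69.8 and 59.0 RPKM in Caf40 knockdown testes and 15.8 and 16.5 RPKM in wildtype testes, a rise of 3.39-fold in Caf40 knockdown testes (log2 fold change 1.76, SE 0.10, adjusted p = 1e-09). eIF4A measured 309.8 and 317 RPKM in Zeus knockdown testes, 709 and 653 RPKM in Caf40 knockdown testes and 323 and 342 RPKM in wildtype testes (log2 fold change 0.80, SE 0.10, adjusted p = 4.15e-06, Caf40 knockdown minus wildtype). It overlaps an annotated transposable element, and reads of the element would count with it. eIF4H2 measured 326 and 317 RPKM in Zeus knockdown testes, 145 and 176 RPKM in Caf40 knockdown testes and 312 and 309 RPKM in wildtype testes (log2 fold change -1.18, SE 0.12, adjusted p = 4.35e-07, Caf40 knockdown minus wildtype). For these 3 genes the Caf40 knockdown did not overlap the other groups. Of all tested genes 90.1% did not overlap wildtype and 92.7% did not overlap the Zeus knockdown. eIF4B, another helicase cofactor, measured 83.1 and 77.4 RPKM in Caf40 knockdown testes, against 62.2 and 62.6 RPKM in wildtype testes, and did not pass (log2 fold change 0.13, adjusted p = 0.183).

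**Figure D2:**
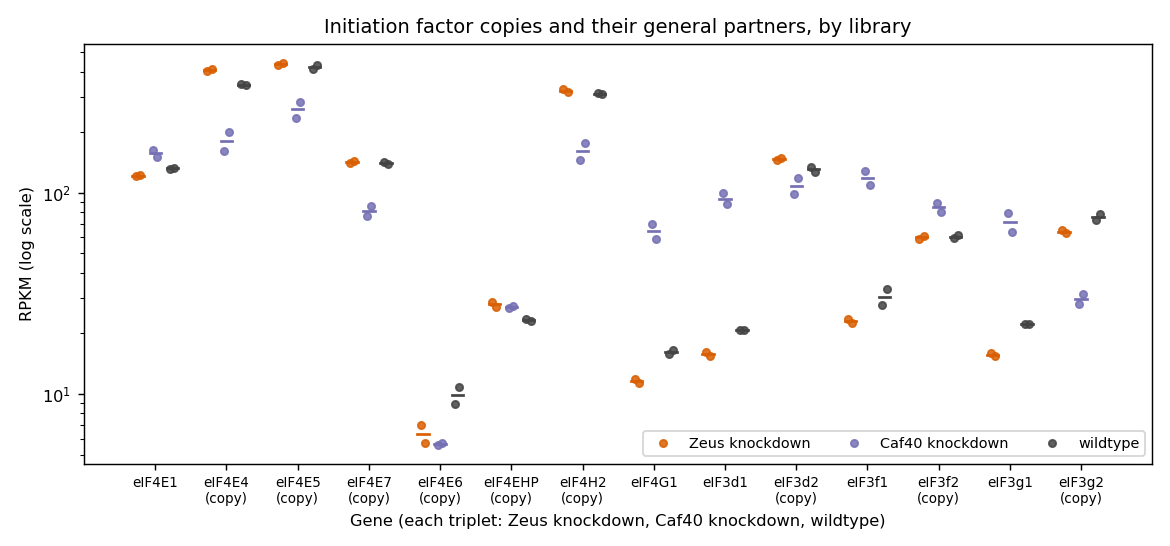
RPKM (log axis) of the copies and their general partners in each library, with Zeus knockdown, Caf40 knockdown and wildtype from left to right for each gene, points for the 2 libraries and a line for their mean. In RPKM the Caf40 libraries lie below wildtype for the copies eIF4E4, eIF4E5, eIF4E6, eIF4E7, eIF4H2, eIF3d2 and eIF3g2. They lie above it for the copies eIF3f2 and eIF4EHP and for eIF4E1, eIF4G1, eIF3d1, eIF3f1 and eIF3g1. The general partner eIF4A is not drawn.

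The eIF3 complex held the largest rise and the largest fall of the 39 members. Of its 16 genes 13 rose and 2 fell in Caf40 knockdown testes (81.25% and 12.5%, against 41.9% and 38.6% of all tested genes), and the median log2 fold change was 0.45. The gene pair for subunit d, which in mammals can bind the cap itself, split: eIF3d1 measured 16.1 and 15.5 RPKM in Zeus knockdown testes, 99.2 and 87.9 RPKM in Caf40 knockdown testes and 20.8 and 20.8 RPKM in wildtype testes, and eIF3d2 measured 146 and 149 RPKM in Zeus knockdown testes, 98.2 and 118 RPKM in Caf40 knockdown testes and 134 and 127 RPKM in wildtype testes. In the Caf40 knockdown eIF3d1 rose 3.83-fold (log2 fold change 1.94, SE 0.09, adjusted p = 2.08e-10), a rise above that of 94.7% of all tested genes, and eIF3d2 fell (log2 fold change -0.50, SE 0.12, adjusted p = 0.0011). Subunit g, which binds RNA, split the same way: eIF3g1 measured 15.96 and 15.4 RPKM in Zeus knockdown testes, 78.9 and 64.1 RPKM in Caf40 knockdown testes and 22.2 and 22.2 RPKM in wildtype testes, and eIF3g2 measured 65.5 and 62.7 RPKM in Zeus knockdown testes, 27.9 and 31.2 RPKM in Caf40 knockdown testes and 73.3 and 78.4 RPKM in wildtype testes. eIF3g1 rose in Caf40 knockdown testes (log2 fold change 1.45, SE 0.09, adjusted p = 4.16e-09), and eIF3g2 fell (log2 fold change -1.58, SE 0.10, adjusted p = 3.09e-09), a fall of 2.99-fold. Neither gene overlapped between Caf40 knockdown and wildtype, as for 90.1% of all tested genes. For subunit f, a structural subunit with an MPN domain, eIF3f1 measured 23.6 and 22.6 RPKM in Zeus knockdown testes, 128 and 109.6 RPKM in Caf40 knockdown testes and 27.8 and 33.1 RPKM in wildtype testes and rose in Caf40 knockdown testes (log2 fold change 1.73, SE 0.10, adjusted p = 1.2e-09). Its copy eIF3f2 measured 59.0 and 61.3 RPKM in Zeus knockdown testes, 88.8 and 80.2 RPKM in Caf40 knockdown testes and 59.3 and 61.9 RPKM in wildtype testes and also rose, by much less (log2 fold change 0.25, SE 0.09, adjusted p = 0.0149), but its log2 fold change was -0.052 with scaling to the same median RPKM.

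The 10 eIF3 subunits with 1 gene each allowed a comparison of levels per length within the complex. In wildtype they ranged from 43.4 RPKM (eIF3c) to 107.5 RPKM (eIF3k) in replicate 1 and from 43.5 to 112.8 RPKM in replicate 2. The general genes eIF3d1, eIF3f1 and eIF3g1 lay below all of them in wildtype testes, at between 0.247 and 0.393 of the median of these 10 genes. In the Zeus knockdown they lay at between 0.218 and 0.3333 of the median, and in Caf40 knockdown testes at between 0.461 and 0.859. With the copy added, subunit d reached 2.28 and 2.34 times the median in Zeus knockdown testes, 1.33 and 1.48 times in Caf40 knockdown testes and 1.88 and 1.76 times in wildtype testes. The same sum for subunit f was 1.17 and 1.19 times the median in Zeus knockdown testes, 1.46 and 1.37 times in Caf40 knockdown testes and 1.06 and 1.13 times in wildtype testes. For subunit g it was 1.15 and 1.11 times in Zeus knockdown testes, 0.718 and 0.686 times in Caf40 knockdown testes and 1.16 and 1.20 times in wildtype testes. Subunit g in Caf40 knockdown testes was thus the only one of these sums below the median of the single-gene subunits. In wildtype most transcripts of subunits d, f and g came from the copy, as the stacked plot of the subunits shows.

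**Figure D3:**
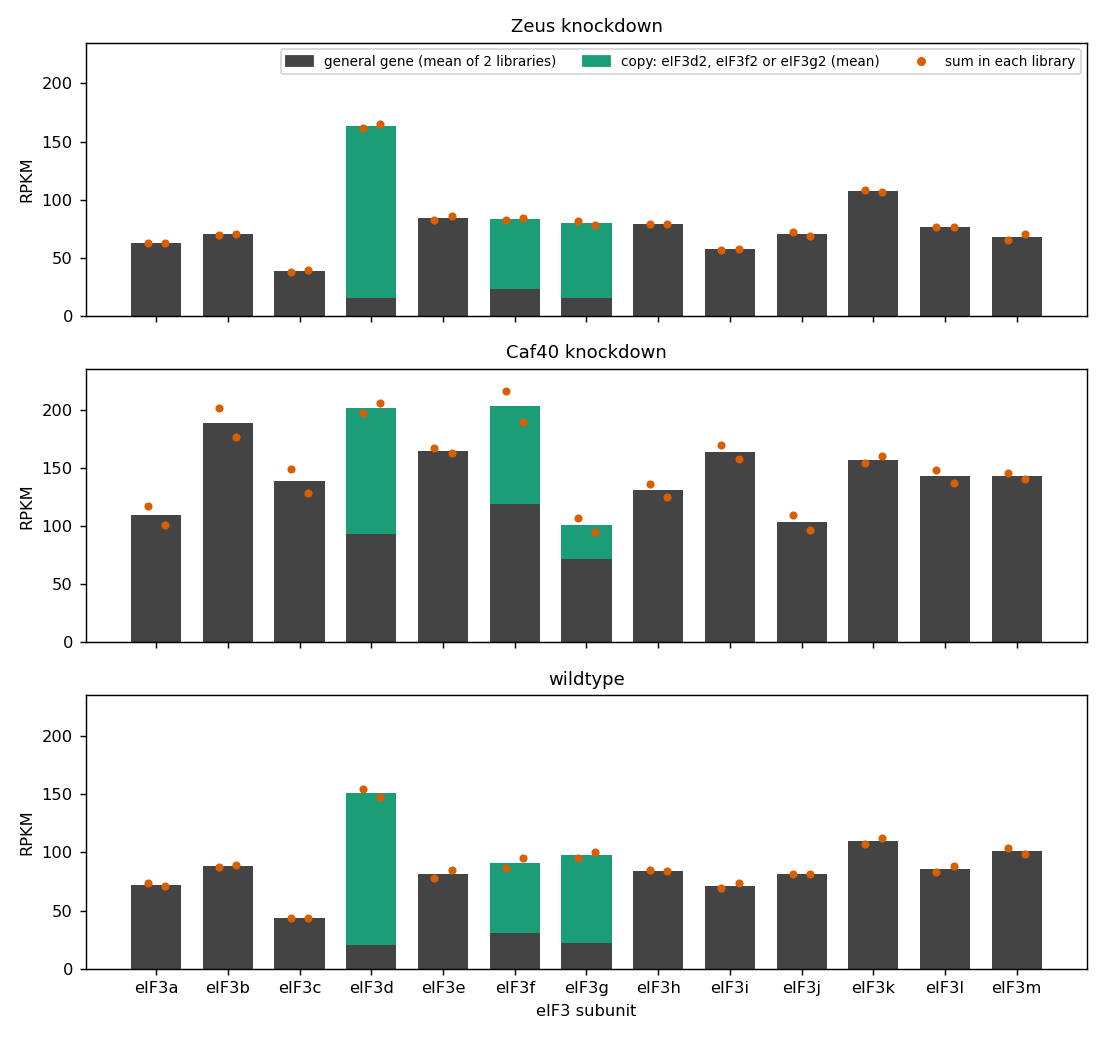
RPKM of each eIF3 subunit in the Zeus knockdown (top), the Caf40 knockdown (middle) and wildtype (bottom), with the general gene in grey, the copy in green (means of 2 libraries) and points for the sum in each library. For subunit d the copy makes up most of the bar in Zeus knockdown testes and wildtype and about the same as the general gene in Caf40 knockdown testes (copy to general ratio 0.990 and 1.34).

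Among the single-gene subunits, the large core subunit eIF3c rose most in Caf40 knockdown testes, with 149 and 129 RPKM in Caf40 knockdown testes, against 43.4 and 43.5 RPKM in wildtype testes (log2 fold change 1.44, SE 0.10, adjusted p = 5.76e-09). The propeller subunits eIF3i and eIF3b followed, eIF3i with 169 and 158 RPKM in Caf40 knockdown testes, against 69.2 and 73.4 RPKM in wildtype testes (log2 fold change 0.97, adjusted p = 1.33e-07), and eIF3b with 201 and 177 RPKM in Caf40 knockdown testes, against 87.8 and 89.2 RPKM in wildtype testes (log2 fold change 0.86, adjusted p = 9.16e-07). For these 3 subunits the groups did not overlap, as for 90.1% of all tested genes. Smaller rises were called for eIF3e, eIF3l, eIF3h and eIF3a, with log2 fold changes of 0.79, 0.50, 0.40 and 0.36. eIF3k and eIF3m were also called, at 0.29 and 0.27, but turned to -0.015 and -0.032 with scaling to the same median RPKM. The loosely bound subunit eIF3j did not pass (0.11, adjusted p = 0.262). The single-gene subunits therefore ranged from 0.11 to 1.44 in log2 fold change.

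All 5 subunits of eIF2B rose in Caf40 knockdown testes, as did 41.9% of all tested genes, with a median log2 fold change of 0.89. eIF2Bgamma measured 4.002 and 5.25 RPKM in Zeus knockdown testes, 16.8 and 15.2 RPKM in Caf40 knockdown testes and 5.74 and 6.09 RPKM in wildtype testes (log2 fold change 1.20, SE 0.13, adjusted p = 7.16e-07, Caf40 knockdown minus wildtype). eIF2Balpha measured 5.30 and 6.57 RPKM in Zeus knockdown testes, 21.7 and 21.1 RPKM in Caf40 knockdown testes and 6.94 and 9.31 RPKM in wildtype testes (log2 fold change 1.17, SE 0.15, adjusted p = 3.99e-06). The catalytic subunit eIF2Bepsilon measured 12.97 and 12.1 RPKM in Caf40 knockdown testes, against 5.66 and 5.85 RPKM in wildtype testes (log2 fold change 0.89, adjusted p = 2.01e-06). eIF2Bdelta and eIF2Bbeta rose by less, with log2 fold changes of 0.73 and 0.57. No subunit overlapped between the Caf40 knockdown and wildtype, which also held for 90.1% of all tested genes. All 5 genes share exon sequence with a neighbour on the opposite strand. The summed RPKM of eIF2B was 39.1 and 44.5 in Zeus knockdown testes, 115.4 and 104 in Caf40 knockdown testes and 50.1 and 53.2 in wildtype testes.

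The factors of start codon selection and subunit joining changed little in either direction. Of the 8 genes in this group, 2 rose and 2 fell in Caf40 knockdown testes (4 of 8, against 80.5% of all tested genes), with log2 fold changes between -0.43 and 0.46. eIF2beta, a subunit of the initiator tRNA carrier eIF2, measured 175 and 171 RPKM in Caf40 knockdown testes, against 104 and 110.3 RPKM in wildtype testes (log2 fold change 0.46, SE 0.09, adjusted p = 0.000262). eIF2D, which in mammals can bring tRNA to the ribosome without eIF2, measured 31.2 and 30.2 RPKM in Caf40 knockdown testes, against 20.9 and 21.2 RPKM in wildtype testes (log2 fold change 0.31, SE 0.08, adjusted p = 0.00341). Both rose, with no overlap between the groups, as for 90.1% of all tested genes. eIF2A measured 383 and 398 RPKM in Caf40 knockdown testes, against 453 and 444 RPKM in wildtype testes and fell (log2 fold change -0.43, SE 0.11, adjusted p = 0.00216). eIF5B, the GTPase of subunit joining, was called as a fall after TMM scaling (log2 fold change -0.27, SE 0.10, adjusted p = 0.021) although its RPKM overlapped, at 118 and 115.2 RPKM in Caf40 knockdown testes, against 117 and 122 RPKM in wildtype testes, and the call was lost in 9 of 17 alternative settings. eIF1, eIF1A, eIF5 (which triggers GTP hydrolysis on eIF2) and eIF6 (which keeps the large subunit apart) did not pass, with log2 fold changes of -0.01, 0.09, 0.08 and -0.06. eIF5 shares exon sequence with CG46312 on the same strand.

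The ratio of a copy to its general partner within a library does not depend on the scaling of libraries, and 8 of the 12 listed pairs could be computed (eIF4H2, without its partner, is not among them). The ratio of eIF3d2 to eIF3d1 was 9.06 and 9.63 in Zeus knockdown testes, 0.990 and 1.34 in Caf40 knockdown testes and 6.43 and 6.13 in wildtype testes. For eIF3g2 to eIF3g1 it was 4.10 and 4.08 in Zeus knockdown testes, 0.354 and 0.487 in Caf40 knockdown testes and 3.31 and 3.53 in wildtype testes. For eIF3f2 to eIF3f1 it was 2.50 and 2.72 in Zeus knockdown testes, 0.695 and 0.732 in Caf40 knockdown testes and 2.13 and 1.87 in wildtype testes. In each of these pairs the copy exceeded the general gene in Zeus knockdown and wildtype testes, and in Caf40 knockdown testes the ratio was at most 1.34. Relative to wildtype the mean log2 ratio in Caf40 knockdown testes corresponded to an 8.23-fold lower ratio for subunit g, a 5.45-fold lower one for subunit d and a 2.80-fold lower one for subunit f.

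Against eIF4E1, the ratio of eIF4E4 was 3.35 and 3.35 in Zeus knockdown testes, 0.979 and 1.33 in Caf40 knockdown testes and 2.63 and 2.58 in wildtype testes. For eIF4E5 it was 3.59 and 3.61 in Zeus knockdown testes, 1.44 and 1.88 in Caf40 knockdown testes and 3.13 and 3.24 in wildtype testes, and for eIF4E7 1.17 and 1.17 in Zeus knockdown testes, 0.468 and 0.569 in Caf40 knockdown testes and 1.08 and 1.04 in wildtype testes. These 3 ratios were between 1.93-fold and 2.28-fold lower in Caf40 knockdown testes than in wildtype testes. For eIF4E6 the ratio was 0.0579 and 0.0466 in Zeus knockdown testes, 0.0342 and 0.0376 in Caf40 knockdown testes and 0.0674 and 0.0817 in wildtype testes, below wildtype in both knockdowns. For eIF4EHP it was 0.238 and 0.221 in Zeus knockdown testes, 0.164 and 0.182 in Caf40 knockdown testes and 0.180 and 0.174 in wildtype testes, and here the Caf40 knockdown and wildtype overlapped. In the Caf40 knockdown 7 of 8 ratios were thus lower than wildtype without overlap, and in Zeus knockdown testes 7 of 8 were higher and 1 (eIF4E6) lower. A lack of overlap is common: in RPKM it held for 90.1% and 79.9% of all tested genes in these comparisons. No such share was computed for ratios. The ratios of the eIF4E copies and of eIF4EHP share eIF4E1 as denominator, so they are not separate observations. All 8 ratios were lower in replicate 1 than in replicate 2 of the Caf40 knockdown. The exact permutation test (two-sided) gave p = 0.3333 for 23 of the 24 comparisons of ratios, the smallest p that 2 libraries against 2 allow, and p = 1 for eIF4EHP between the Caf40 knockdown and wildtype (adjusted p = 0.347 and 1 over the 24). With this test no ratio could pass the threshold of 0.05, and no other test was run on the ratios.

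**Figure D4:**
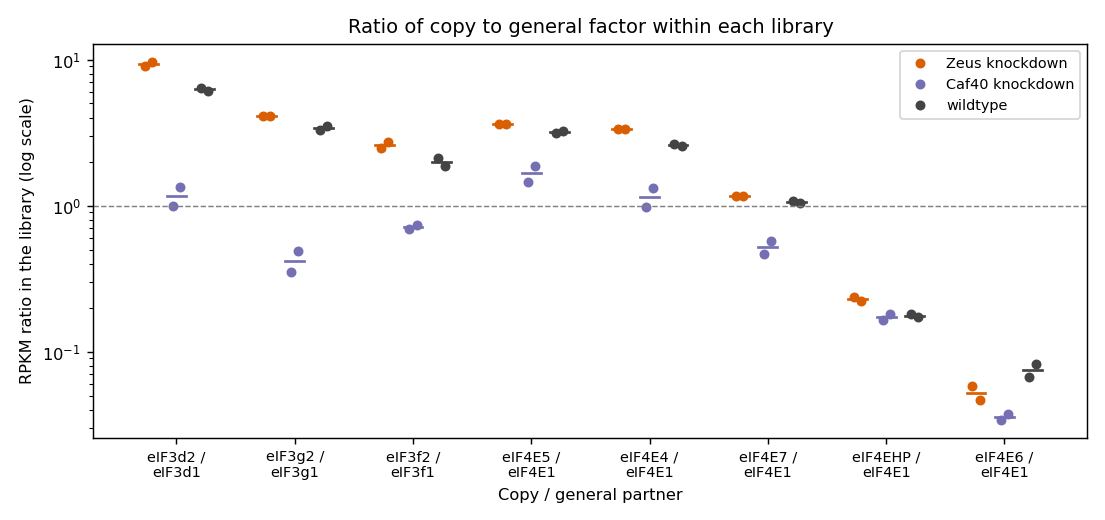
Ratio of RPKM of copy to general partner within each library (log axis), with Zeus knockdown, Caf40 knockdown and wildtype from left to right, points for libraries, a line for their mean and a dashed line at equal levels. The eIF3g ratio lies below the dashed line in Caf40 knockdown testes (0.354 and 0.487), and above it in wildtype testes (3.31 and 3.53) and, further up, in Zeus knockdown testes.

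In the Zeus knockdown the initiation factors changed little. Of 39 members, 4 rose and 4 fell, 20.5% in all, whereas 36.8% of all tested genes were called (16.8% rose and 20.0% fell). No called member changed by 2-fold, against 2.81% of all genes that rose and 3.06% that fell by as much, and the median log2 fold change was -0.02, against -0.04 for all genes. Among the copies eIF4E4, eIF4EHP and eIF3d2 rose and none fell, a split that turned to 0 rises and 2 falls with scaling by library total and to 1 rise and 2 falls with limma on log2(RPKM + 1). eIF4E6 had the largest log2 fold change of any member in either direction, -0.51 (SE 0.20), but did not pass (adjusted p = 0.0533), and passed under 7 of the 17 alternatives. eIF4E4 had a log2 fold change of 0.39 (SE 0.12, adjusted p = 0.0219, Zeus knockdown minus wildtype), eIF4EHP of 0.40 (adjusted p = 0.00498) and eIF3d2 of 0.33 (adjusted p = 0.039). eIF2D measured 24.4 and 25.9 RPKM in Zeus knockdown testes, against 20.9 and 21.2 RPKM in wildtype testes, and rose (log2 fold change 0.41, SE 0.09, adjusted p = 0.00243). Among the general genes eIF3m, a PCI-domain subunit of eIF3, measured 65.5 and 70.3 RPKM in Zeus knockdown testes, against 104 and 98.4 RPKM in wildtype testes, and fell (log2 fold change -0.43, SE 0.09, adjusted p = 0.00347). eIF3g1 fell by 0.36 on the log2 scale (adjusted p = 0.0167), eIF4G1 by 0.33 (adjusted p = 0.018) and eIF3d1 by 0.25 (adjusted p = 0.048). For all 8 called genes the 2 groups did not overlap in RPKM, which also held for 32 of all 39 members and 79.9% of all tested genes. Each of the 8 calls was lost under at least 1 of the 17 alternatives, and the count of members called depended on the fit. It was 20 without the Caf40 libraries, and it also moved when single libraries were left out. The count over all tested genes moved as well when a library was left out, so this is not particular to the members. With scaling by library total 1 member rose and 13 fell, with scaling to the same median RPKM 9 rose and 1 fell, and with limma on log2(RPKM + 1) 2 rose and 14 fell. None of the 5 eIF2B subunits was called (adjusted p between 0.142 and 0.781, and 0 of 5 at an unadjusted p under 0.05). All 6 measured stem cell and spermatogonia markers of 8 listed fell in these testes and 10 of 17 spermatid markers rose, and their part in these changes was not tested.

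Both knockdowns were compared with the same wildtype libraries, so their values are given side by side and a direct contrast was fitted. Of 39 members, 10 were higher and 20 lower in Zeus knockdown than in Caf40 knockdown testes, against 40.2% and 43.3% of all genes (83.5% in either direction). Differences of 2-fold or more were called for 5 higher and 10 lower members, 12.8% and 25.6%, against 20.7% and 24.6% of all genes. The groups did not overlap for 37 members, against 92.7% of all genes, and overlapped for eIF4EHP and eIF5B although both were called. Of the 9 copies 8 were higher and none lower, and of the 30 other members 2 were higher (eIF2A and eIF5B) and 20 lower. The largest differences were those of eIF3d1 (log2 difference -2.19, Zeus minus Caf40, adjusted p = 9.19e-11), eIF4G1 (-2.09, adjusted p = 2.3e-10) and eIF3f1 (-1.98, adjusted p = 4.66e-10), all lower in Zeus knockdown testes. In the other direction eIF4E4 differed by 1.54 (adjusted p = 2.84e-08), eIF3g2 by 1.48 (adjusted p = 5.96e-09) and eIF4H2 by 1.38 (adjusted p = 7.62e-08). eIF3f2 was the copy that did not pass (log2 difference -0.11, adjusted p = 0.252). With scaling by library total the split was 7 higher and 29 lower, and with scaling to the same median RPKM 19 higher and 14 lower. For the copies these splits were 6 and 1, and 9 and 0. For the other members they were 1 and 28, and 10 and 14. The calls of eIF4B, eIF4E6, eIF4EHP and eIF5B were lost under 9, 8, 3 and 3 of 17 alternatives. Those of eIF2beta, eIF3a, eIF3e, eIF3h and eIF3l were each lost under 1.

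Other genes of translation gave a setting for these values. Of 7 measured elongation and termination factors (10 listed), 6 rose and none fell in Caf40 knockdown testes, 85.7% called in all, near the 80.5% of all tested genes, of which 41.9% rose. eEF1gamma, a subunit of the complex that recharges eEF1A, measured 99.5 and 107 RPKM in Zeus knockdown testes, 634 and 521 RPKM in Caf40 knockdown testes and 113 and 122 RPKM in wildtype testes (log2 fold change 2.07, adjusted p = 6.93e-10, Caf40 knockdown minus wildtype). The translocase eEF2 measured 183 and 189.5 RPKM in Zeus knockdown testes, 1086 and 946 RPKM in Caf40 knockdown testes and 252 and 274 RPKM in wildtype testes (log2 fold change 1.72). Both were several times higher in the Caf40 knockdown libraries than in any other library. eEF1beta and eEF1delta rose as well, with 1.17 and 1.06. In the Zeus knockdown 2 of the 7 were called (28.6%, against 36.8% of all tested genes), and both eEF2 and eEF1beta fell, with log2 fold changes of -0.35 and -0.27.

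Of 15 measured regulators of initiation (22 listed), 7 rose and 5 fell in Caf40 knockdown testes, 80.0% in all and near the 80.5% of all tested genes. cup, an eIF4E-binding repressor, measured 232 and 230.0 RPKM in Zeus knockdown testes, 93.6 and 105 RPKM in Caf40 knockdown testes and 268 and 239 RPKM in wildtype testes and fell in Caf40 knockdown testes (log2 fold change -1.58, adjusted p = 1.71e-08). boule (bol), a translational regulator of meiotic entry, measured 341 and 325 RPKM in Zeus knockdown testes, 149 and 171 RPKM in Caf40 knockdown testes and 386 and 374 RPKM in wildtype testes (log2 fold change -1.48). bag of marbles (bam), which ends spermatogonial divisions, measured 2.17 and 2.24 RPKM in Zeus knockdown testes, 41.0 and 32.1 RPKM in Caf40 knockdown testes and 3.41 and 3.23 RPKM in wildtype testes (log2 fold change 3.22), and Ythdf, a reader of methylated messenger RNA, rose too (1.49). bam and bol are also among the germ cell stage markers. In the Zeus knockdown 3 of the 15 rose and 1 fell (bam, log2 fold change -0.44), 26.7% in all, against 36.8% of all tested genes. Of these mxt, which binds eIF4E and eIF3, measured 60.8 and 61.6 RPKM in Zeus knockdown testes, against 41.6 and 38.9 RPKM in wildtype testes, and rose (log2 fold change 0.75, adjusted p = 3.09e-05), and bru1, a translational repressor, and NAT1, a relative of eIF4G, had log2 fold changes of 0.36 and 0.30.

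Reads across exon junctions were listed apart from reads within the genome sequence. Junction reads were counted for 22 members and none for 17, of which eIF3f1, eIF3g2 and eIF6 are annotated without an intron. Among the 36 members with an annotated intron 38.9% had no junction read, against 40.4% of 7683 tested genes with an intron, and a count of 0 is not read here as the lack of an intron. The copies eIF4E5, eIF3f2, eIF4H2 and eIF4E4 held 5.997%, 2.65%, 1.39% and 0.765% junction reads, and eIF4E1 held 3.48%. With genome reads alone the copy to general ratios moved by between -3.74% and 5.28%.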

How the data were processed

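Single-end messenger RNA libraries of testis were aligned with Bowtie to dm3, per the submitters' processing notes (versions and annotation: not given in the sources used here). The deposited files hold unnormalized counts of genome and junction reads for each gene, and the authors' RPKM values, per the file headers. Identifiers were named from a BDGP6 gene table (12861 of 15178 had a symbol), used only for names, chromosomes and overlaps. The members and gene lists were chosen with earlier results of these data known.

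Counts were tested with edgeR 4.0.16 in R 4.3.3 (TMM scaling, quasi-likelihood test, two-sided, Benjamini-Hochberg over the 10223 genes whose mean RPKM reached 1, threshold 0.05). The 3 groups shared 1 spread and no block was used. Alternatives were other scalings, DESeq2 1.42.0, limma 3.58.1 on log2(RPKM + 1) or log2(RPKM + 0.1) of the authors' deposited values, other filters, a replicate block, the 2 groups alone, genome reads only, and leaving out each library. Ratios were compared by exact permutation in scipy 1.17.1. The test script was tested on simulated data. Replicates differed by more than sampling noise (chi-square per degree of freedom 2.06 in the Zeus knockdown, 14.5 in the Caf40 knockdown and 5.15 in wildtype), so none was counted as 1 library.

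Named with full values are every copy and its partner and, per comparison, up to 12 members with the largest called change and no overlap between groups. The 2 libraries of other species were not used, because their identifiers are not paired with symbols.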

Additional observations from a re-analysis of the deposited data

How the results depend on the processing

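In the Caf40 knockdown 22 of 31 called members stayed called in the same direction under all 17 alternatives (14 that rose and 8 that fell), between the knockdowns 21 of 30, and in Zeus knockdown testes 0 of 8. The number of members called in Zeus knockdown testes was 8, against 14 with scaling by library total, 16 with limma on log2(RPKM + 1), 15 with limma on log2(RPKM + 0.1), 20 with only the 2 groups compared, and 1 to 20 when each library was left out. Leaving out a library moved the count over all genes in that comparison, 3761, to between 1625 and 5360. Scaling also split the calls over all genes. Scaling by library total gave 1002 rises and 3565 falls in Zeus knockdown testes and 3149 and 5480 between the knockdowns, against 1715 and 2046, and 4108 and 4427. Scaling to the same median RPKM gave 2456 and 1321 in Zeus knockdown testes, 3271 and 4953 in Caf40 knockdown testes (against 4281 and 3949), and 5135 and 3254 between the knockdowns. Calls of members in Zeus knockdown testes, 4 rises and 4 falls, were 5 and 2 with DESeq2.

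The members' median log2 fold change followed the scaling. In the Zeus knockdown it was -0.02, against -0.18 with scaling by library total, 0.088 with scaling to the same median RPKM, -0.16 with limma on log2(RPKM + 1), -0.17 with limma on log2(RPKM + 0.1), and -0.016 to 0.026 when each library was left out. In the Caf40 knockdown it was 0.29, against 0.51 with scaling by library total, -0.015 with the same median RPKM and 0.51 with either limma setting. Between the knockdowns (Zeus minus Caf40) it was -0.21, against -0.60, 0.19 and -0.59 for these settings and -0.14 with RLE factors or DESeq2. 

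Single genes also turned. In the Caf40 knockdown eIF1 was at 0.21 with scaling by library total and with either limma setting, eIF4EHP at 0.21 and 0.22 with limma, and eIF3f2, eIF3k, eIF3m and eIF4E1 at -0.052, -0.015, -0.032 and -0.28 with the same median RPKM. Between the knockdowns, scaling by library total and the limma settings on log2(RPKM + 1) and log2(RPKM + 0.1) gave eIF1 -0.34, -0.33 and -0.33, eIF1A -0.29, -0.29 and -0.29, eIF2D -0.29, -0.28 and -0.29, eIF4E1 -0.38, -0.37 and -0.37, and eIF5 -0.25, -0.24 and -0.24. Scaling to the same median RPKM gave eIF2beta 0.044, eIF3f2 0.30, eIF3h 0.066, eIF3j 0.24, eIF3k 0.23, eIF4B 0.19 and eIF6 0.31. Scaling by library total moved the median of all genes by -0.16, 0.22 and -0.38 in the Zeus, Caf40 and between-knockdown comparisons, and equal median RPKM moved it by 0.10, -0.30 and 0.40. The limma settings use RPKM, which is scaled by mapped reads without composition factors, much like scaling by library total. They are therefore no separate check on scaling. The limma settings also differ in test and input, and the part of each was not tested.

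Same-numbered replicates did not deviate together in expression (correlations of 0.022, -0.037 and -0.052). These correlations cannot tell whether same-numbered samples were collected or prepared together. With the replicate block 7 members were called in Zeus knockdown testes, 31 in Caf40 knockdown testes and 29 between the knockdowns (eIF3d1 lost its call in Zeus knockdown testes), and the medians were -0.016, 0.28 and -0.21. With 2 libraries per group, and with eIF4E6 and the eIF2B genes at the fewest reads, small changes of rare members are the least certain.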

Other observations

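The mitochondrial translation factors, which serve the ribosomes of the organelle, also hold a gene pair. mEFTu1, the mitochondrial elongation factor Tu, measured 20.2 and 19.03 RPKM in Zeus knockdown testes, 95.1 and 80.5 RPKM in Caf40 knockdown testes and 28.2 and 31.4 RPKM in wildtype testes. Its relative mEFTu2 measured 151 and 158 RPKM in Zeus knockdown testes, 104 and 117 RPKM in Caf40 knockdown testes and 124 and 131 RPKM in wildtype testes. In the Caf40 knockdown mEFTu1 rose (log2 fold change 1.32, adjusted p = 1.01e-08) and mEFTu2 fell (log2 fold change -0.43, adjusted p = 0.00171). In the Zeus knockdown mEFTu1 fell (log2 fold change -0.46, adjusted p = 0.00302) and mEFTu2 rose (log2 fold change 0.43, adjusted p = 0.0064). The initiation factor mIF2 measured 6.65 and 7.03 RPKM in Caf40 knockdown testes, against 2.37 and 2.72 RPKM in wildtype testes, and rose (log2 fold change 1.20, adjusted p = 3.79e-06), and the exchange factor mEFTs measured 277 and 309.8 RPKM in Caf40 knockdown testes, against 355 and 356 RPKM in wildtype testes, and fell (log2 fold change -0.50, adjusted p = 0.000614). Of the 7 genes of this list in the files, 1 rose and 2 fell in Zeus knockdown testes (42.9%, against 36.8% of all tested genes), and 3 rose and 2 fell in Caf40 knockdown testes (71.4%, against 80.5%).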
